A study of Mus musculus with 4 samples.

Results

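Immediate-early genes are switched on within minutes of a stimulus, without new protein synthesis, and most of them code for transcription factors that start a second wave of genes. Fos, Fosb, Jun, Junb, Jund and Atf3 code for basic leucine zipper proteins that pair to form the factor AP-1 or related dimers, Egr1 codes for a zinc finger factor, Nr4a1 for an orphan nuclear receptor, Ier2 for a small nuclear protein, and Dusp1 for a phosphatase that switches off the MAP kinases which induce the others. They respond to growth factors, mechanical force, membrane depolarisation and stress, and dissociation of a tissue into single cells is known to induce them in many cell types. The 10 genes were taken by symbol from the 32289 genes of the count tables, and every one of them was measured in all 4 libraries.

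The libraries came from inner ear organoids, in which mouse embryonic stem cells are grown as aggregates towards the tissue that forms the sensory organs of hearing and balance. All 4 groups carried the Atoh1-nGFP reporter line, in which nuclear GFP follows Atoh1, a transcription factor needed for hair cells to form, and no other allele, agent or treatment distinguished them in the labels. The groups were organoids at day 16 (3358 kept cells), day 20 (4315 kept cells), day 21 GFP high (3431 kept cells) and day 21 GFP low (3680 kept cells). Per the labels' protocol the cells were dissociated, sorted on GFP and loaded on a 10x Genomics chip, while the labels' description field speaks of nuclei. The gate used at day 16 and day 20 is not given in the sources used here.

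Each group had 1 library, so no difference between groups had a replicate check, no test was run, and every interval below is a 95% interval that covers counting error only. Levels are given as CPM, the gene's unique molecular identifiers (UMIs, 1 per captured RNA molecule) per 1000000 UMIs of the cells summed. A gene was called higher or lower at a CPM ratio of 2 or more either way, provided that at least 1 of the sums reached 10 CPM and, within a cell class, with 30 or more UMIs over both sums. Median depth ran from 8831 UMIs a cell at day 20 to 28865 in GFP high, and the median mitochondrial share from 0.918% at day 20 to 5.07% in GFP high. Between 1 and 8 cell barcodes were shared by any pair of libraries. The 9 markers of blood, immune and endothelial cells summed to 3.05 to 9.47 CPM, with none of them at 10 CPM in any library.

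Cells were assigned to a class when they held a UMI of at least 4 of its 8 markers and of at least 2 more than of each other class. In this way 12558 cells were assigned, 1639 of them exactly at this limit, and 1009 cells lay just outside it. Hair-cell-like cells made up 65.6% of GFP high and 21.0% of GFP low, but 3.96% at day 16 and 2.97% at day 20, where mesenchyme-like cells were 29.5% and 49.2%. Supporting-cell-like cells numbered 339 in GFP high and 592 in GFP low, and under 50 cells of this class were found at day 16 and day 20, so they were not summed there. The hair-cell-like class was led by Smpx, Otof and Pvalb, and the supporting-cell-like class by Otol1, Oc90 and Col9a1, with Otog and Agr3 of its own markers among its 10 leading genes. The label otic lineage given to every sample therefore covered cells with neuron, mesenchyme, Merkel cell and epidermis markers as well.

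Of the 10 genes, 8 had a promoter window in RefSeq (GRCm38.p6), and Ier2 and Egr1 had none. The windows below hold the 250 bases before the RefSeq start of 4 genes that were higher at day 20 over all cells, and of Jund, whose level had the narrowest range between classes. The RefSeq starts are not always the ends of the gene spans given further on: the Jund window lies wholly upstream of its span and does not touch it, and the Nr4a1 and Dusp1 windows lie inside their spans. Capitals mark the half-site of the cAMP response element, TGACG on either strand (CGTCA when read on the other one), through which CREB and ATF proteins are known to bind.
Fos, chr12:85473640-85473889, plus strand: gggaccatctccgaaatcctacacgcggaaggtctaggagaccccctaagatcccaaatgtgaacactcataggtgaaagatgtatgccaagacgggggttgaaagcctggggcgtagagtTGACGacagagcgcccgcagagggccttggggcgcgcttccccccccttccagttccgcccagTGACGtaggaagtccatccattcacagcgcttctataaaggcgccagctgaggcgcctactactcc
Junb, chr8:84978749-84978998, minus strand: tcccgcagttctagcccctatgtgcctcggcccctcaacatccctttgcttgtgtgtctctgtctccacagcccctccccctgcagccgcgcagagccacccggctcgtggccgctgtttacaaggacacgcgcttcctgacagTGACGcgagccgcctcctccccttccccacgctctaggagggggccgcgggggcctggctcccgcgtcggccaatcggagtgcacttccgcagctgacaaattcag
Nr4a1, chr15:101266596-101266845, plus strand: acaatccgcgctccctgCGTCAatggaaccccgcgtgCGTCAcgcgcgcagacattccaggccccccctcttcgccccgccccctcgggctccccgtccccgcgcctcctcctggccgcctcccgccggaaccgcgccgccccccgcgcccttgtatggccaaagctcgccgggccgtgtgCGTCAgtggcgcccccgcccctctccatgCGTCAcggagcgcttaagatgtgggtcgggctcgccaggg
Dusp1, chr17:26508473-26508722, minus strand: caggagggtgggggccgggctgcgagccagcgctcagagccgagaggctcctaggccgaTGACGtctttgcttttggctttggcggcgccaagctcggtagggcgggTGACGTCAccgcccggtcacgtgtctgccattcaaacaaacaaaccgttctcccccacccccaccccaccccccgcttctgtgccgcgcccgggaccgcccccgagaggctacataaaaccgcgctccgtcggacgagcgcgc
Jund, chr8:70697489-70697738, plus strand: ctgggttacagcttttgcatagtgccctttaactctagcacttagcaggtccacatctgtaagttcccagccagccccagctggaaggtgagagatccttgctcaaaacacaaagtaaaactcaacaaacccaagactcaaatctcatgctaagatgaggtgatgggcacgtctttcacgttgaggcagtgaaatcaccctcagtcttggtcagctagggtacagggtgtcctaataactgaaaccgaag

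The half-site was present in 6 of the 8 windows, those of Fos, Fosb, Junb, Atf3, Nr4a1 and Dusp1, against 17.8% of 32851 windows of the same length. The Nr4a1 window held 4 copies, at 40 to 233 bases before the RefSeq start, and the Fos window held 2, at 66 and 129 bases. The full palindrome TGACGTCA, which contains the half-site on both strands, was found in the window of Dusp1 and in 1.55% of all windows, and TATAAA in that of Fos and in 12.4%. The AP-1 letters TGANTCA were in 0 of the 8 windows and in 6.75% of all windows. These matches describe letters in short windows and were not set against binding data.

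Fos, the AP-1 subunit most used as a mark of recent stimulation (chr12:85473890-85477273), followed the cell class. It had 2921 CPM (2888 to 2955) in supporting-cell-like cells of GFP high and 3062 CPM (3032 to 3091) in those of GFP low. In mesenchyme-like cells it had 1694 CPM at day 16, 2739.9 CPM at day 20, 2164 CPM in GFP high and 2263 CPM in GFP low. In hair-cell-like cells it had 100.2, 130.1, 220.5 and 188 CPM in the same order of libraries, and in neuron-like cells 89.0, 132, 198 and 140.0 CPM. The 2 groups of classes did not overlap in any library, and the share of all genes that separated them in this way was not worked out. Between them lay epidermis-like cells, with 268 CPM at day 16, 657 CPM at day 20 and 1203 CPM in GFP low, and Merkel-cell-like cells with 104, 256 and 221 CPM in those libraries. The 83 pluripotent-like cells of GFP low had 39.1 CPM.

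**Figure D1:**
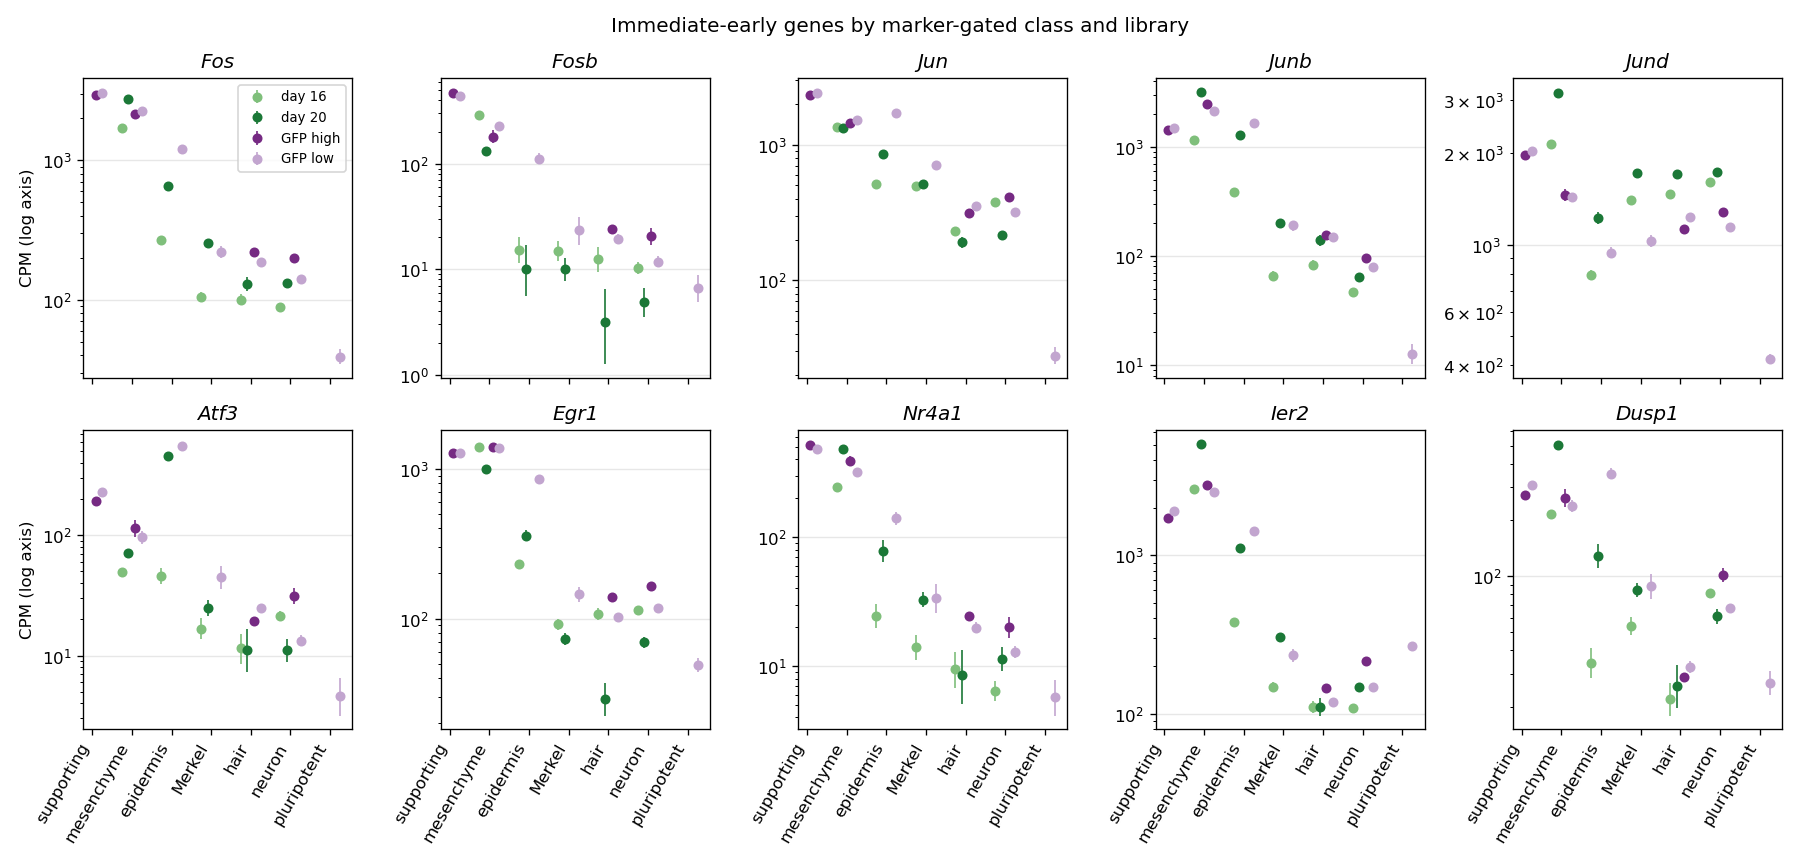
Level of each immediate-early gene (CPM, log axis) in every class with 50 or more cells in a library, with colours for the 4 libraries and bars for the 95% counting interval. Across the libraries, supporting-cell-like and mesenchyme-like cells sit above hair-cell-like and neuron-like cells for 9 of the 10 genes. Jund has the same order within each library, but its panel spans a narrow range and the order does not hold across libraries. Its mesenchyme-like level in GFP low (1433 CPM) lies under its neuron-like level at day 20 (1742 CPM). The share of all genes with this order was not worked out.

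Fosb, whose protein is closely related to that of Fos (chr7:19302696-19310051), had 466 CPM and 439 CPM in supporting-cell-like cells of GFP high and GFP low. It reached 289, 132, 181 and 229 CPM in mesenchyme-like cells in library order (day 16, day 20, GFP high, GFP low). All hair-cell-like, neuron-like and Merkel-cell-like sums lay between 3.13 and 23.9 CPM, and Fosb at day 20 rested on 7 UMIs in 128 hair-cell-like cells.

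Jun, the partner that lets Fos bind DNA (chr4:95049034-95052222), was spread less widely between classes. It had 2306 and 2410 CPM in supporting-cell-like cells of GFP high and GFP low, and 1335, 1328, 1438 and 1515 CPM in mesenchyme-like cells in library order, so that its mesenchyme-like level differed by 1.14-fold at most. Merkel-cell-like cells had 498, 509 and 702 CPM of Jun at day 16, at day 20 and in GFP low, above the 190.4 to 353 CPM of hair-cell-like cells. Pluripotent-like cells had 28.0 CPM.

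Junb, which competes with Jun for Fos proteins (chr8:84974484-84978718), had 1414 and 1471 CPM in supporting-cell-like cells of GFP high and GFP low. Its mesenchyme-like sums were 1161 CPM at day 16, 3150.1 CPM at day 20, 2450.4 CPM in GFP high and 2117 CPM in GFP low, the lowest being day 16. Neuron-like cells ranged from 47.2 to 94.7 CPM and hair-cell-like cells from 82.9 to 157 CPM. The gene shares 351 bases with Prdx2 on the other strand, and the strand setting of the counting is not given in the sources used here. Over all kept cells Prdx2 had 983 CPM (GFP high) to 1463 CPM (day 16). Its sums in hair-cell-like, supporting-cell-like, neuron-like and mesenchyme-like cells ran from 580 CPM (mesenchyme-like, GFP high) to 2072 CPM (neuron-like, GFP high).

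Jund, the Jun protein that many resting cells hold (chr8:70698949-70700616), differed least between classes. Supporting-cell-like cells had 1981 and 2042 CPM in GFP high and GFP low, against 1123 and 1232 CPM in hair-cell-like cells of the same libraries. Mesenchyme-like cells had 2149.5, 3163, 1457 and 1433 CPM in library order, and neuron-like cells 1605, 1742, 1283 and 1143 CPM. Within a library the highest and lowest classes differed by a median of 2.64-fold for Jund, compared with 7.17-fold for Jun and 20.1-fold for Fos. As a result Jund made up 15.2% and 14.98% of the UMIs of the 10 genes in supporting-cell-like cells of GFP high and GFP low, but 51.2% and 55.0% in hair-cell-like cells. A gene model on the other strand, Gm11175, overlaps it.

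**Figure D2:**
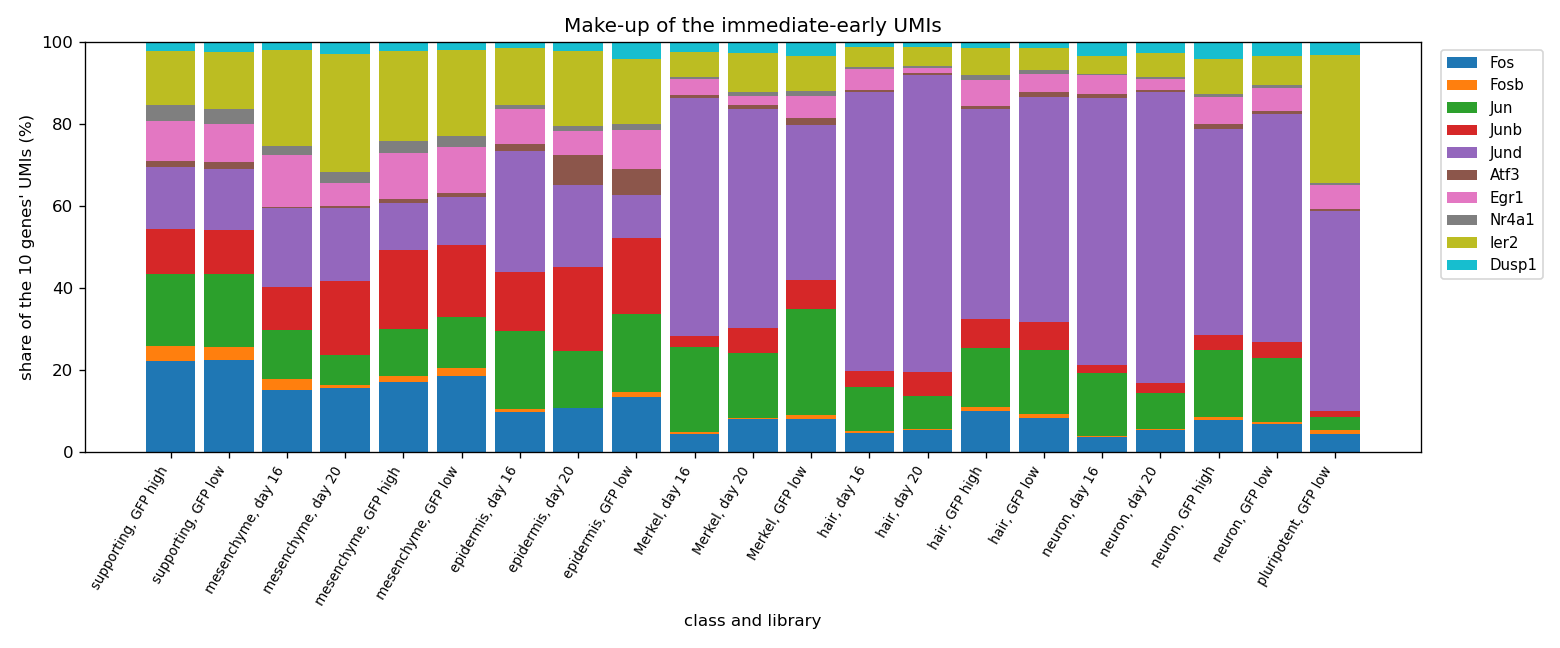
Share of each gene among the UMIs of the 10 immediate-early genes (%), one bar for each class and library. Jund takes over 50% of the bar in hair-cell-like and neuron-like cells of every library, and under 20% in supporting-cell-like and mesenchyme-like cells.

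Atf3, a stress-induced partner and repressor of the family (chr1:191170296-191218039), was distributed differently from the AP-1 subunits. In epidermis-like cells it had 45.9 CPM at day 16, 458 CPM at day 20 and 547 CPM in GFP low, and the values at day 20 and in GFP low lay above the 192 and 229 CPM of supporting-cell-like cells in GFP high and GFP low. Mesenchyme-like cells had 49.0, 71.6, 114 and 96.5 CPM in library order. Hair-cell-like cells had 11.2 to 24.7 CPM and neuron-like cells 11.1 to 31.3 CPM.

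Egr1, the zinc finger factor (chr18:34859823-34864984), had nearly the same level in the supporting-cell-like cells of both gates, 1275 CPM in GFP high and 1273 CPM in GFP low. Mesenchyme-like cells had 1393 CPM at day 16, 1000.2 CPM at day 20, 1408 CPM in GFP high and 1385 CPM in GFP low, the day 20 value being the lowest. Hair-cell-like cells had 108, 29.1, 139.9 and 102 CPM in the same order, again with day 20 lowest.

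Nr4a1, the nuclear receptor (chr15:101254269-101274795), had 517 and 487 CPM in supporting-cell-like cells of GFP high and GFP low, and 243, 485, 390.5 and 319 CPM in mesenchyme-like cells in library order. In hair-cell-like cells it was low, with 9.44, 8.49, 24.4 and 19.9 CPM. It was not counted among the genes compared between day 20 and day 16 in that class, because both sums were under 10 CPM.

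Ier2 (chr8:84661331-84662852) had 1717 and 1906 CPM in supporting-cell-like cells of GFP high and GFP low, and 2609 CPM at day 16, 5048 CPM at day 20, 2764 CPM in GFP high and 2526 CPM in GFP low in mesenchyme-like cells. Hair-cell-like cells stayed between 109.9 and 146 CPM. Unlike the other 9 genes, Ier2 was higher in the pluripotent-like cells of GFP low, with 267 CPM, than in the hair-cell-like cells of that library, with 118 CPM.

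Dusp1, the feedback phosphatase (chr17:26505590-26562128), had 272 and 307 CPM in supporting-cell-like cells of GFP high and GFP low. Its mesenchyme-like sums were 217, 504, 262 and 239 CPM in library order, with day 20 apart from the other libraries. Hair-cell-like cells had 22.0 to 32.6 CPM and neuron-like cells 60.9 to 102 CPM. Its annotated span overlaps Ergic1 and 3 further gene models.

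Supporting-cell-like cells were set against hair-cell-like cells within each gate. This pair and those that follow were chosen after the levels had been seen, and their counts describe these libraries. In GFP high 9 of the 10 genes, all but Jund, were called higher, where 16.3% of 10281 genes were called higher, with a median log2 ratio of 3.23 over the 10 genes and of -0.13 over all genes. In GFP low again all but Jund were called higher, where 17.7% of 10282 genes were, with a median of 3.46 over the 10 genes and -0.09 over all genes. Nr4a1 had the largest ratio, 21.2 (20.1 to 22.4) in GFP high and 24.5 (22.1 to 27.1) in GFP low, and Jund the smallest, 1.76 (1.74 to 1.79) and 1.66 (1.63 to 1.69). Median depth was lower in supporting-cell-like cells, with 24577 and 19122 UMIs a cell in GFP high and GFP low, against 30423 and 25590 in hair-cell-like cells. The median mitochondrial share was also lower, with 3.57% and 2.68% against 6.30% and 7.55%, and its part in the difference was not tested. Oc90 and Cnmd were among the leading genes of the supporting-cell-like class. Nonsensory otic cells had no gate of their own, and their part in the supporting-cell-like sums was not tested.

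Mesenchyme-like cells were set against neuron-like cells in all 4 libraries. All genes but Jund, 9 of 10, were called higher in each of them, where, in library order, 17%, 17.1%, 15.7% and 17.6% of all genes tested were called higher. The median log2 ratio of the 10 genes was 3.92, 4.10, 3.08 and 3.78 in that order, against -0.21, -0.41, -0.40 and -0.34 over all genes. Jund again had the smallest ratio, between 1.14 in GFP high and 1.82 at day 20. Against hair-cell-like cells, mesenchyme-like cells likewise had 9 genes, all but Jund, called higher in each library, with 19.3%, 20.8%, 19% and 20.6% of all genes called higher in library order.

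Epidermis-like cells exceeded Merkel-cell-like cells, which arise in the epidermis, by a number of genes that differed between libraries. They had 5 genes called higher at day 16, where 14.7% of all genes were, 6 at day 20, where 13.7% were, and 9 in GFP low, where 13.7% were. Atf3 had ratios of 2.74 (2.12 to 3.56), 18.3 (15.4 to 21.9) and 12.2 (9.78 to 15.4) in that order. Merkel-cell-like cells were also set against hair-cell-like cells, the other class that depends on Atoh1. Merkel-cell-like cells had 2 of 10 genes called higher at day 16 (10.8% of all genes), 6 of 9 at day 20 (13.8%) and 1 of 10 in GFP low (14%). The median log2 ratio of epidermis-like to Merkel-cell-like cells over the 10 genes was 1.05 at day 16, 1.30 at day 20 and 2.32 in GFP low, and that of Merkel-cell-like to hair-cell-like cells 0.33, 1.35 and 0.62.

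Counts per single cell also set supporting-cell-like and mesenchyme-like cells above hair-cell-like and neuron-like cells. Each cell was thinned to 3000 UMIs, and the number of the 10 genes with a UMI was counted. Cells under 3000 UMIs were left out, which were 0 to 9 hair-cell-like cells in a library and 2 supporting-cell-like cells in each gate. In library order they were also 151, 264, 1 and 2 mesenchyme-like cells and 86, 86, 0 and 32 neuron-like cells. Supporting-cell-like cells had a mean of 6.96 genes in GFP high and 6.77 in GFP low, against 2.27 and 2.25 in hair-cell-like cells. Mesenchyme-like cells had 5.88 to 6.67 and neuron-like cells 2.26 to 2.65 over the 4 libraries, and pluripotent-like cells 1.60 in GFP low. Epidermis-like cells had 3.40 at day 16, 5.16 at day 20 and 6.51 in GFP low, where mesenchyme-like cells had 6.48. Merkel-cell-like cells had 2.55, 2.98 and 2.80 at day 16, at day 20 and in GFP low. Cells with 5 or more of the genes were 87.2% and 82.9% of supporting-cell-like cells in GFP high and GFP low, and 9.37% and 8.58% of hair-cell-like cells. Without thinning these shares were 97.1% and 94.1%, against 53.9% and 44.8%. RNA free in the droplets also gives UMIs, and no class here is known to lack these genes, so the low shares cannot be told apart from it.

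The UMIs were unevenly spread over cells of the low classes. The 10% of cells with most Fos held 79.1% of the Fos UMIs of hair-cell-like cells in GFP high and 84.8% in GFP low, and 83.3% and 78.0% in neuron-like cells. In supporting-cell-like cells the same fraction of cells held 32.7% and 38.0%, and in mesenchyme-like cells 28.4% to 46.3%. The largest count of Fos in 1 cell was 326 UMIs among hair-cell-like cells of GFP high and 443 among supporting-cell-like cells of that library.

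Hair-cell-like cells with a UMI of 1 or more supporting cell markers had more of these genes than those with none. In GFP high Fos was at 232 CPM in 2099 such cells, against 37.0 CPM in the 152 cells with none, and the 10 genes summed to 2234 CPM against 1559 CPM. In GFP low Fos was at 227 CPM in 607 cells, against 34.7 CPM in 167 cells, and the sum was 2467 CPM against 1366 CPM. For this split 1 UMI of 1 supporting cell marker was enough. The split took in 2099 of the 2251 hair-cell-like cells of GFP high and 607 of the 774 of GFP low. Whether doublets were among these cells was not tested. Among hair-cell-like cells with 3 or more UMIs of 1 subtype gene alone, Fos was at 282 CPM in the 341 cells with Grp in GFP high, 155 CPM in the 723 with Cib3, 103 CPM in the 58 with Bmp2 and 30.6 CPM in the 180 with Ocm. In GFP low it was at 445 CPM in 56 cells with Grp, 143 CPM in 175 with Cib3 and 72.4 CPM in 206 with Bmp2, the same order.

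Mesenchyme-like cells with and without Lum, a collagen-binding proteoglycan of connective tissue, both stood above hair-cell-like cells. The 10 genes summed to 11724 CPM in 862 Lum-positive cells and 6609 CPM in 129 Lum-negative cells at day 16. At day 20 the sums were 18000 CPM in 1841 Lum-positive cells and 14382 CPM in 281 Lum-negative cells.

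The spread of each gene was divided between cell class and library over the 21 sums of a class in a library with 50 or more cells. A least squares fit of log2(CPM + 1) gave the class term, added last, a median of 86.6% of the sum of squares over the 10 genes, with a range of 70.7% for Jund to 93.5% for Jun. The library term took a median of 5.27%, from 2.58% for Ier2 to 20.3% for Jund. Over all 7268 genes at 50 CPM or more in at least 1 sum, the medians were 82.0% for class and 6.36% for library, so the division for these genes was near that of the genes at large. Within a class, the highest and lowest libraries differed by a median of 1.53-fold for Jund to 3.28-fold for Fosb. Within a library, the highest and lowest classes differed by a median of 20.1-fold for Fos, 37.5-fold for Junb and 47.5-fold for Nr4a1.

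**Figure D3:**
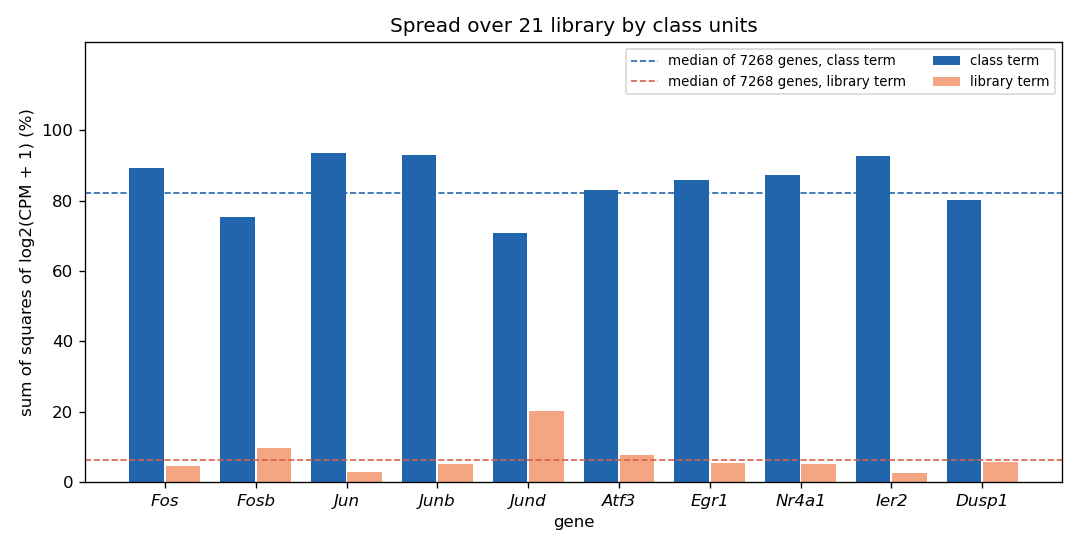
Share of the sum of squares of log2(CPM + 1) taken by the cell class term and the library term (%), for each gene over 21 sums, with dashed lines at the medians of 7268 genes. Class takes 70.7% to 93.5% for the 10 genes and library 2.58% to 20.3%, with Jund at the low end for class and the high end for library.

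Across the same 21 sums, the genes whose log2 level was most like the mean of the 10 were Ifi27 (Pearson's r = 0.96), Zfp36 (0.96), Parva (0.96), Ccn1 (0.95) and Sdc2 (0.95). Zfp36 codes for a protein that destabilises messenger RNAs of the early response, and Ccn1 for a matricellular protein that is itself an early target of serum and of YAP. Among the 10 genes, Fos (0.99) and Nr4a1 (0.98) were closest to the mean of the 10, of which each is a part, and Jund was farthest (0.47). The sums share libraries, depth and classes, so these values describe likeness only.

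Between GFP high and GFP low over all kept cells, 0 of the 10 genes were called higher, where 6.92% of 10537 genes were, and 0 were called lower, where 7.66% were. All 10 ratios of GFP high to GFP low were under 1, from 0.558 (0.541 to 0.576) for Atf3 to 0.954 (0.947 to 0.962) for Jund. Fos was at 684 CPM in GFP high and 995 CPM in GFP low, and Ier2 at 482 CPM in GFP high and 732 CPM in GFP low. Supporting-cell-like cells were 9.88% of GFP high and 16.1% of GFP low. With the classes of GFP high weighted as in GFP low, the ratios lay between 0.776 for Atf3 and 1.02 for Nr4a1, with that of Fos at 0.935.

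Within the classes the gates differed less in supporting-cell-like, hair-cell-like and mesenchyme-like cells than in neuron-like cells, with median log2 ratios of -0.06, 0.15 and 0.08 over the 10 genes, against 0.52 in neuron-like cells. In supporting-cell-like cells 0 genes were called in either direction, where 0.584% of all genes were called higher and 0.476% lower, and the ratios ran from 0.839 (0.793 to 0.889) for Atf3 to 1.06 (1.02 to 1.10) for Nr4a1. In hair-cell-like cells 0 genes were called, where 3.13% were called higher and 1.55% lower, with ratios from 0.781 for Atf3 to 1.37 (1.31 to 1.44) for Egr1. In mesenchyme-like cells 0 genes were called, where 1.45% were called higher and 3.88% lower, in 55 cells of GFP high and 130 of GFP low. In neuron-like cells all 10 ratios were over 1, where the median log2 ratio over all genes was -0.03, and 1 gene was called higher, where 2.63% of all genes were, and 0 lower, where 1.91% were. The gene called higher was Atf3, with 31.3 CPM in GFP high and 13.3 CPM in GFP low, a ratio of 2.35 (1.95 to 2.83) that rested on 176 and 347 UMIs.

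At day 20, set against day 16 over all kept cells, 6 of the 10 genes were called higher, where 5.02% of 9889 genes were, and 0 were called lower, where 6.81% were. Junb was at 1582 CPM at day 20 and 331 CPM at day 16 (ratio 4.78, 4.70 to 4.85), and Nr4a1 at 235 CPM at day 20 and 62.3 CPM at day 16 (3.76, 3.62 to 3.91). Ier2 was at 2497 CPM at day 20 and 691 CPM at day 16 (3.61, 3.57 to 3.66), and Fos at 1433 CPM at day 20 and 475 CPM at day 16 (3.02, 2.97 to 3.06). Dusp1 and Atf3 followed at 2.79-fold and 2.24-fold, while Jund, Jun and Egr1 were 1.48-fold, 1.35-fold and 1.27-fold and Fosb 0.871-fold. The median log2 ratio was 1.30 over the 10 genes and -0.19 over all genes.

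The make-up of the libraries also differed between the days. Mesenchyme-like cells, which were high in 9 of the genes in both libraries, were 49.2% at day 20 and 29.5% at day 16. With the classes of day 20 weighted as at day 16, Junb (2.84), Atf3 (2.29), Ier2 (2.09) and Nr4a1 (2.08) had a ratio over 2, Fos (1.85) and Dusp1 (1.72) did not, and Fosb was lower (0.500). The share of all genes called under this weighting was not worked out, and the part of the make-up in the difference was not tested. In bulk sums of this kind more cells of a class and more RNA per cell cannot be told apart, so the comparison was also made within each class.

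**Figure D4:**
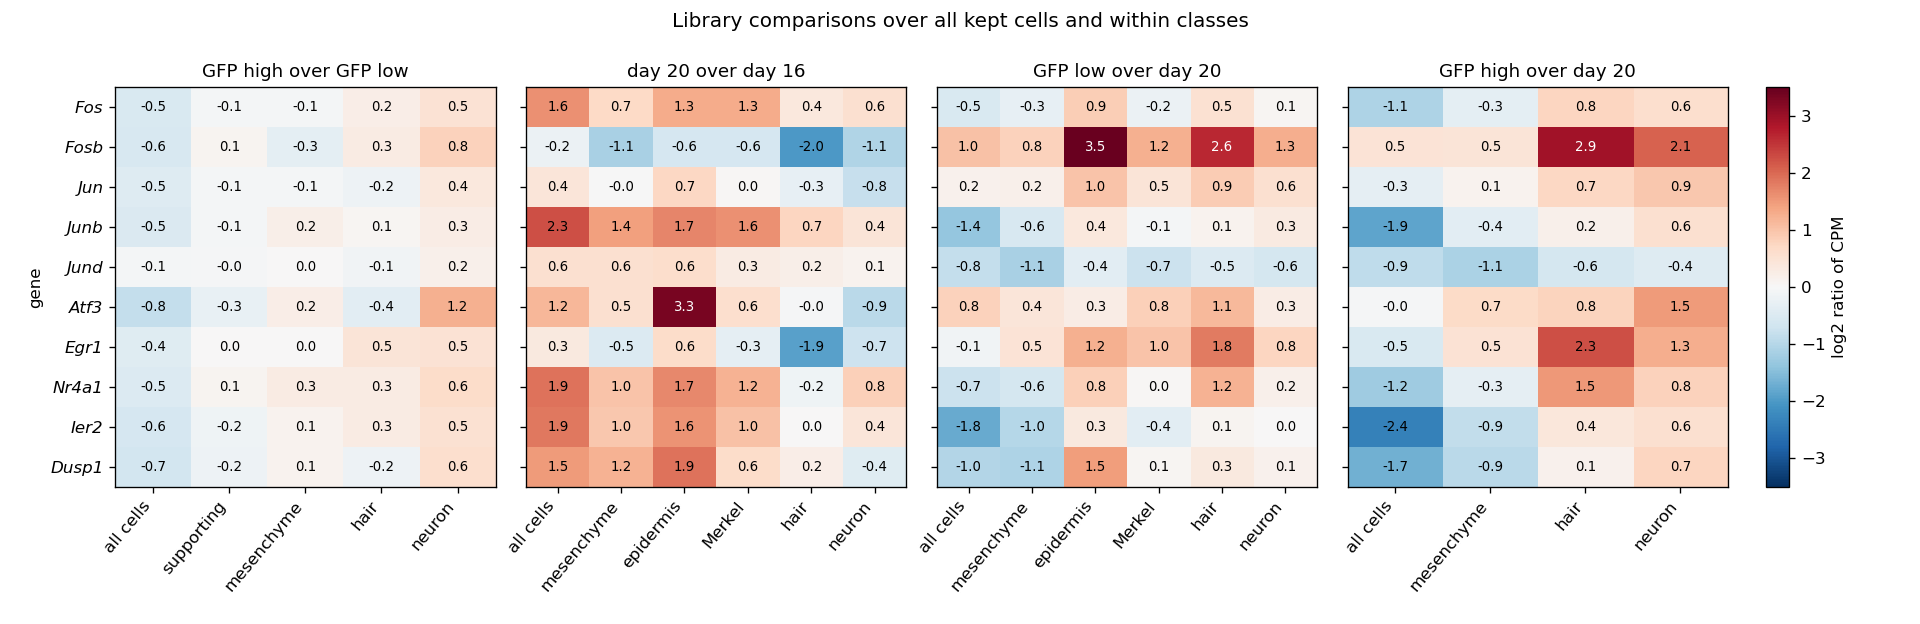
Log2 ratio of CPM between libraries for each immediate-early gene (rows), over all kept cells and within each class with 50 or more cells in both libraries (columns), in 4 comparisons. Between the gates the neuron-like column is above 0 for all 10 genes, with Atf3 highest at 1.23. At day 20 against day 16 Fos, Junb, Jund and Ier2 (0.007 in hair-cell-like cells) are above 0 and Fosb below 0 in each of the 5 classes.

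Epidermis-like cells (105 at day 20, 168 at day 16) had 6 genes called higher at day 20, where 3.51% of all genes were, namely Fos, Junb, Ier2, Nr4a1, Atf3 and Dusp1, and 0 lower, where 12.9% were. Atf3 was at 458 CPM at day 20 and 45.9 CPM at day 16, a ratio of 9.98 (8.38 to 12.0), and Dusp1 at 129 CPM at day 20 and 34.3 CPM at day 16, a ratio of 3.76 (2.97 to 4.78). Merkel-cell-like cells had 4 genes called higher, where 3.44% were, and 0 lower, where 6.35% were. The higher ones were Junb, with 199 CPM at day 20 and 65.1 CPM at day 16 (3.05, 2.72 to 3.43), and Fos, Nr4a1 and Ier2 with ratios of 2.46, 2.34 and 2.05.

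Mesenchyme-like cells had 2 genes called higher at day 20, where 3.91% were, and 1 called lower, where 8.66% were. Junb was at 2.71-fold (2.66 to 2.76) and Dusp1 at 2.33-fold (2.23 to 2.43), and Fosb at 0.456-fold (0.433 to 0.480), with 132 CPM at day 20 and 289 CPM at day 16. Ier2 at 1.93-fold lay just under the limit of 2, and Nr4a1 at 1.999-fold was under it by less than its counting error (1.92 to 2.09). Neuron-like cells had 0 genes called higher, where 3.16% were, and 1 lower, where 3.27% were: Fosb at 0.480-fold (0.333 to 0.676), with 4.92 CPM at day 20 and 10.3 CPM at day 16. Hair-cell-like cells had 0 of 9 genes called higher, where 4.51% were, and 2 lower, where 10.2% were. Egr1 was at 29.1 CPM at day 20 and 108 CPM at day 16 (0.270, 0.205 to 0.350), and Fosb at 3.13 CPM at day 20 and 12.6 CPM at day 16 (0.249, 0.0956 to 0.547).

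Over these 5 classes the Junb ratio of day 20 to day 16 was above 1 in each, from 1.36 (1.22 to 1.52) in neuron-like cells to 3.27 (3.05 to 3.52) in epidermis-like cells. The Fosb ratio was under 1 in each, from 0.249 in hair-cell-like cells to 0.662 (0.473 to 0.923) in Merkel-cell-like cells, and its interval included 1 in epidermis-like cells (0.338 to 1.21). Fos was above 1 in each as well, from 1.30 (1.12 to 1.51) in hair-cell-like cells to 2.46 in Merkel-cell-like cells. So was Jund, from 1.09 (1.06 to 1.11) in neuron-like cells to 1.54 (1.45 to 1.64) in epidermis-like cells. Ier2 ran from 1.005 (0.859 to 1.17) in hair-cell-like cells to 2.95 (2.74 to 3.18) in epidermis-like cells. Jun, Egr1, Nr4a1, Atf3 and Dusp1 were above 1 in some classes and under 1 in others. The sizes differed between classes, and that difference could not be tested with 1 library a day. Median depth and mitochondrial share were lower at day 20 in each class, for example 8512 UMIs and 0.574% at day 20 in mesenchyme-like cells, against 12645 UMIs and 2.04% at day 16, and their part in the ratios was not tested.

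GFP low and GFP high were each set against day 20, so both comparisons, like that of day 20 with day 16, share the day 20 library. Over all kept cells GFP low had 1 gene called higher than at day 20, where 17.8% of all genes were, and 3 lower, where 6.41% were. Fosb was at 134 CPM in GFP low and 65.4 CPM at day 20 (2.05, 1.97 to 2.14), and Ier2 at 732 CPM in GFP low and 2497 CPM at day 20 (0.293, 0.290 to 0.296). Junb and Dusp1 were the other genes called lower, at 0.392-fold and 0.488-fold. GFP high had 0 genes called higher, where 24.1% were, and 5 lower, where 12.7% were, with Ier2 at 0.193-fold, Junb at 0.277-fold, Dusp1 at 0.310-fold, Nr4a1 at 0.424-fold and Fos at 0.477-fold. With the classes weighted as at day 20, 0 genes were called lower in either comparison, and Fosb was still called higher in GFP low (2.18). The weighting used 6 groups of cells for GFP low and 4 for GFP high, counting cells of no class as a group. Merkel-cell-like and epidermis-like cells, 33 and 47 in GFP high, were left out there. Fos at day 20 was thus 1686 CPM in the GFP high weighting, against 1433 CPM over all kept cells. The share of all genes called under this weighting was not worked out.

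Within classes other genes were called. Hair-cell-like cells of GFP low had 4 genes called higher than at day 20, where 18.1% of all genes were, and 0 lower, where 6.3% were. Egr1 was at 102 CPM in GFP low and 29.1 CPM at day 20 (3.51, 2.74 to 4.56), and Fosb, Nr4a1 and Atf3 were the others. In GFP high 3 genes were called higher in that class, where 15.5% were, and 0 lower, where 2.2% were, among the higher ones Egr1 at 4.81-fold (3.77 to 6.24). Epidermis-like cells of GFP low had 4 genes called higher, where 13% were, and 0 lower, where 2.69% were, with Fosb at 112 CPM in GFP low and 10.1 CPM at day 20, Dusp1 at 2.74-fold, Egr1 at 2.38-fold and Jun at 2.002-fold. Merkel-cell-like and neuron-like cells of GFP low had 1 gene called higher each, where 10.6% and 6.53% were, and it was Fosb in both, and 0 lower, where 1.27% and 2.42% were. Neuron-like cells of GFP high had 3 called higher, where 9.48% were, and 0 lower, where 4.3% were.

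Mesenchyme-like cells had no gene called higher in these comparisons, where 13.4% of all genes were in GFP low and 13% in GFP high. Those of GFP low had 2 genes called lower than at day 20, where 4.73% of all genes were, with Jund at 0.453-fold (0.438 to 0.468) and Dusp1 at 0.474-fold (0.437 to 0.513). Those of GFP high had 1 called lower, where 6.56% were, which was Jund at 0.461-fold (0.439 to 0.483). Jund was below its day 20 level in each class compared, between 0.453-fold and 0.767-fold in GFP low and between 0.461-fold and 0.737-fold in GFP high.

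The mitochondrial share of UMIs, which rises in damaged cells, was set beside the summed level of the 10 genes inside each class. The sum was lower where the share was higher in the hair-cell-like cells of both gates. Split into 3 equal parts by this share, hair-cell-like cells of GFP high had summed levels of 3067, 1983 and 1454 CPM from the lowest part to the highest, at median shares of 3.07%, 6.30% and 9.73%. In GFP low the sums were 3493, 1936 and 1377 CPM at 2.57%, 7.55% and 12.1%. At day 16 they were 2104, 2136 and 2257 CPM, with the parts at 2.10%, 3.32% and 5.28%, and at day 20 they were 2755, 2280 and 2091 CPM, with the parts at 0.159%, 1.36% and 3.38%. Neuron-like cells also had lower sums in the highest part, with ratios of the highest part to the lowest of 0.870, 0.831, 0.722 and 0.646 in library order. In mesenchyme-like cells these ratios were 0.769, 0.770, 0.813 and 0.836 in the same order. At day 16, at day 20 and in GFP low they were 0.819, 0.952 and 0.852 in epidermis-like cells. Merkel-cell-like cells had 0.859, 0.870 and 1.46 in those libraries, and pluripotent-like cells of GFP low 0.787. Supporting-cell-like cells kept sums of 12967, 13594 and 12609.7 CPM in GFP high, and 11812, 14490 and 14222 CPM in GFP low. What part the mitochondrial share had in the levels was not tested. Split by depth in the same way, supporting-cell-like cells of the deepest part had 1.49 and 1.53 times the sum of the shallowest in GFP high and GFP low.

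**Figure D5:**
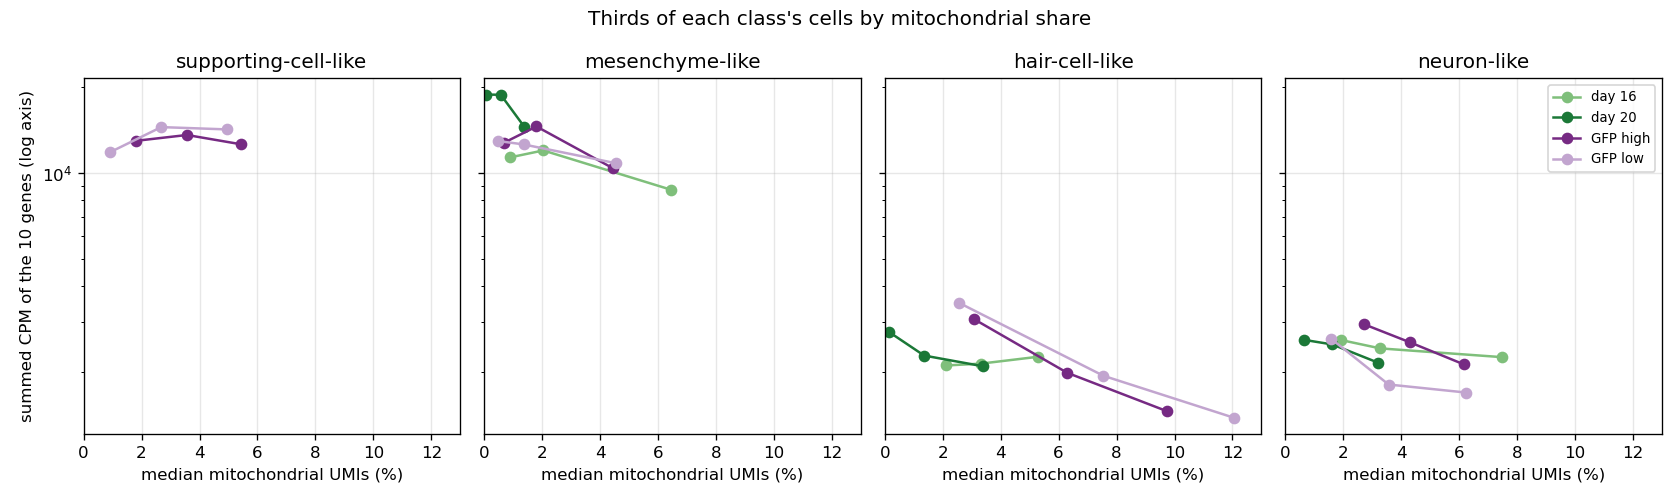
Summed CPM of the 10 immediate-early genes (log axis) in 3 equal parts of each class by mitochondrial share, placed at the median share of the part (%), with 1 line for each library. The hair-cell-like lines of GFP high and GFP low fall across the parts, by 0.474 and 0.394 times as the ratio of the highest part to the lowest, and those of supporting-cell-like cells lie between 11812 and 14490 CPM.

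Other genes of the early response were read from 6 lists. Of 25 relatives of the AP-1 and early response genes, 21 were tested between supporting-cell-like and hair-cell-like cells. In GFP high 15 were called higher, with Egr3, Klf4 and Klf6 among them, and 1 lower (Klf2), at a median log2 ratio of 2.13, and in GFP low 13 were higher and 1 lower, at 1.92. Klf4, a factor of epithelial differentiation chosen here after its values were seen, was at 235 and 229 CPM in supporting-cell-like cells of GFP high and GFP low, and 32.6 and 29.2 CPM in hair-cell-like cells. Of 20 tested feedback regulators, which end the response by removing kinase activity or messenger RNA, 14 were higher in each gate, and 2 lower in GFP high (Dusp10 and Dusp14) and 3 lower in GFP low (the same 2 and Tob2). Among the higher ones was Zfp36 with 286 CPM in supporting-cell-like and 19.6 CPM in hair-cell-like cells of GFP high. Of all genes 16.3% in GFP high and 17.7% in GFP low were called higher, and 19.3% and 19.6% lower.

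Targets of YAP and of serum response factor, which follow cell shape and tension, had 4 of 6 genes called higher in GFP high and 7 of 8 in GFP low, with 0 lower in each. Ccn1 was at 838 and 711 CPM in supporting-cell-like cells of GFP high and GFP low, and 65.9 and 39.5 CPM in hair-cell-like cells. Heat shock genes, the chaperones of protein damage, had 2 of 13 called higher and 3 of 13 lower in each gate, with median log2 ratios of 0.07 and -0.11. Genes of the integrated stress response driven by ATF4 had 1 of 11 higher and 2 lower in GFP high, and 2 of 12 higher and 0 lower in GFP low. Neuronal activity genes had 3 of 8 higher in each gate, with 2 lower in GFP high (Homer1 and Bdnf) and 1 in GFP low (Bdnf). In this contrast of supporting-cell-like with hair-cell-like cells, 16.3% of all genes in GFP high and 17.7% in GFP low were called higher. Those called lower were 19.3% and 19.6%.

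In mesenchyme-like over neuron-like cells the shares of all genes called higher were the 17%, 17.1%, 15.7% and 17.6% given above, and 21.3%, 30%, 29.2% and 26.2% were called lower in library order. Relatives of the early response had 11 of 20, 15 of 21, 16 of 22 and 14 of 21 genes called higher in library order, with 0 lower in each, and YAP and serum response factor targets had 7 of 9, 7 of 9, 6 of 8 and 7 of 9, with 1, 0, 0 and 1 lower. Feedback regulators had 10 of 18, 11 of 18, 16 of 20 and 14 of 21 higher, with 2 lower in each. Heat shock genes had 3, 4, 5 and 4 of 13 called higher and 2, 4, 4 and 4 lower. ATF4 genes had 2 of 12, 2 of 12, 6 of 13 and 4 of 13 higher and 4, 3, 0 and 1 lower. Neuronal activity genes had 3 of 7, 4 of 9, 3 of 6 and 4 of 8 higher and 0, 2, 1 and 1 lower.

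At day 20, set against day 16 over all kept cells, 8 of 20 relatives were called higher, where 5.02% of all genes were, and 0 lower, where 6.81% were. Cebpd, an acute-phase factor, was at 96.3 CPM at day 20 and 8.01 CPM at day 16 (12.0, 10.9 to 13.3), and Ier3, a survival factor of the early response, at 374 CPM at day 20 and 61.5 CPM at day 16 (6.09, 5.87 to 6.31). Klf2 and Maff were at 4.43-fold and 3.80-fold. In mesenchyme-like cells alone 8 of 21 relatives were called higher, where 3.91% of all genes were, and 0 lower, where 8.66% were. In hair-cell-like cells 3 of 11 were higher and 1 lower, where 4.51% and 10.2% of all genes were, and in neuron-like cells 1 of 11 higher and 1 lower, where 3.16% and 3.27% were. Feedback regulators had 4 of 19 higher and 2 lower over all kept cells, with Zfp36 at 279 CPM at day 20 and 89.9 CPM at day 16 and Dusp4 at 15.2 CPM at day 20 and 44.3 CPM at day 16. Within classes the feedback regulators had 1 of 16 higher and 1 lower in mesenchyme-like cells, 1 of 14 higher and 3 lower in hair-cell-like cells, and 1 of 15 higher and 0 lower in neuron-like cells. Zfp36 was not called in mesenchyme-like cells, with 574 CPM at day 20 and 360.1 CPM at day 16, and was under the limit of 10 CPM in hair-cell-like cells, with 7.60 CPM at day 20 and 6.96 CPM at day 16. YAP and serum response factor targets had 4 of 8 higher and 0 lower, among them Acta2, an actin of contractile cells, at 134 CPM at day 20 and 19.3 CPM at day 16. Heat shock genes had 2 of 13 higher (Dnajb1 and Hspa1b) and 1 lower (Hsp90aa1).

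Between the gates over all kept cells, relatives had 0 of 19 genes called higher in GFP high than in GFP low, where 6.92% of all genes were, and 4 lower, where 7.66% were. The 4 were Ier3, Ier5, Ier5l and Nfil3, and the median log2 ratio of the relatives was -0.60, against -0.04 over all genes. Ier3 was at 42.0 CPM in GFP high and 99.9 CPM in GFP low (0.420, 0.405 to 0.435). Feedback regulators had 1 of 19 higher, Dusp14 at 100.1 CPM in GFP high and 39.9 CPM in GFP low, and 1 lower, Dusp4. Neuronal activity genes had 1 of 8 higher, which was Bdnf, a neurotrophin that hair cells of the vestibular organ supply to neurons, at 229 CPM in GFP high and 108 CPM in GFP low over all kept cells. In hair-cell-like cells, which were 65.6% of GFP high and 21.0% of GFP low, Bdnf was at 325 CPM in GFP high and 432 CPM in GFP low, and 0 of 5 neuronal activity genes were called in either direction. Within supporting-cell-like cells 0 of 21 relatives were called higher, where 0.584% of all genes were, and 1 lower (Ier3), where 0.476% were. In hair-cell-like cells 0 of 11 were called in either direction, where 3.13% of all genes were called higher and 1.55% lower.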

How the data were processed

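RNA of single cells was sequenced in 4 droplet libraries, 1 for each group, and the authors deposited a table of raw UMI counts per gene and cell barcode for each library. The submitters' processing notes name Cell Ranger 6.1.0, Seurat 4.0.6 and the build mm10, and Cell Ranger 6.1.2 stands in the file headers. Whether introns or strand were counted is not given in the sources used here. In all, the libraries held 3844 to 5619 barcodes and 47309092 to 115739093 UMIs.

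Cells with at least 1000 detected genes and at most 15% mitochondrial UMIs were kept, and the highest Scrublet scores (scanpy 1.11.5) were left out as likely doublets at 0.8% of barcodes per 1000 barcodes. Kept cells were assigned to 8 classes by fixed markers, and counts were summed per library and class for sums of 50 or more cells. CPM carry exact Poisson intervals, ratios exact conditional binomial intervals and shares of cells exact Clopper-Pearson intervals, which cover counting error alone. With 1 library a group no test was run. Class sums, calls and intervals were tested on simulated data. TMM factors (edgeR 4.0.16), other cell filters, gates, scalings and leaving out libraries or classes were tried as alternatives.

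The 10 genes, the markers, the 6 gene lists and the comparisons were chosen with earlier results of these data known. The text names the 10 genes, up to 4 genes of each list with the largest change over all kept cells at 20 CPM or more, and the 5 genes most correlated with the mean of the 10. List members named from class contrasts were chosen after their values were seen. Of the YAP and serum response factor list, 2 of 12 symbols are older names of Ccn1 and Ccn2. Gene positions are from GENCODE on GRCm38 and promoter windows from RefSeq on GRCm38.p6.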

Additional observations from a re-analysis of the deposited data

Results flagged for a closer look

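Dusp1 moved in opposite directions in GFP low against day 20 in a pair of classes, with a ratio of 2.74 (2.33 to 3.25) in epidermis-like cells and 0.474 (0.437 to 0.513) in mesenchyme-like cells. The difference between the classes was not tested, since each group had 1 library.

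Barcodes under 1000 detected genes, which the cell filter removed, held more Fosb and Nr4a1, in CPM, than the kept cells of the same library in 3 of the 4 libraries. In these Fosb was at 282 CPM at day 16, 492 CPM at day 20 and 242 CPM in GFP high, against 75.1, 65.4 and 90.8 CPM in kept cells. Nr4a1 was at 136 CPM at day 16, 540.3 CPM at day 20 and 236 CPM in GFP high in these barcodes, against 62.3, 235 and 99.5 CPM in kept cells. In GFP low the 2 genes were lower in such barcodes than in kept cells, with 66.5 CPM of Fosb against 134 CPM and 79.3 CPM of Nr4a1 against 139.8 CPM. In barcodes over 15% mitochondrial UMIs Fosb was higher than in kept cells at day 16 (145 against 75.1 CPM) and, in 40 barcodes, at day 20 (149 against 65.4 CPM). It was lower there in GFP high (52.6 against 90.8 CPM) and GFP low (26.1 against 134 CPM). Nr4a1 was lower in these barcodes in all 4 libraries, with 55.8 CPM at day 16, 168 CPM at day 20, 43.1 CPM in GFP high and 23.8 CPM in GFP low.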

How the results depend on the processing

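Of the counts and shares that answer the comparisons, 139 values under the alternatives were labelled the same as the reported one and 35 as moved. For counts of calls the limit was 1.5 times the reported count. The shares of the spread were instead judged against their standard deviation over the immediate-early genes. For single genes, 1388 values stayed within counting error, 671 moved and 1 reversed, which was Nr4a1 in hair-cell-like cells of GFP low against day 20 with the gate applied to cells thinned to 3000 UMIs (log2 ratio -0.20). TMM scaling shifted all log2 ratios over all kept cells by 0.12 for GFP high against GFP low, 0.19 for day 20 against day 16, -0.33 for GFP low against day 20 and -0.19 for GFP high against day 20. Under it GFP low against day 20 had 0 genes higher and 5 lower over all kept cells and 4 pairs of gene and class lower, and GFP high against day 20 had 3 pairs lower.

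With no mitochondrial maximum, and likewise with doublets kept, GFP high against GFP low had 0 pairs of gene and class higher and GFP low against day 20 had 0 genes higher over all kept cells. At a 5% mitochondrial maximum GFP high against GFP low had 3 pairs higher, day 20 against day 16 had 2 pairs lower, and GFP low against day 20 had 2 genes higher over all kept cells. Under that maximum GFP high against day 20 had 1 gene higher and 3 lower over all kept cells, and 11 pairs higher and 0 lower within classes. At 2000 detected genes that comparison had 2 pairs lower. With the mean of per-cell CPM, GFP low against day 20 had 0 genes higher over all kept cells and 6 pairs higher and 0 lower, and GFP high against day 20 had 3 pairs higher and 0 lower. Without the 1% of cells highest in the 10 genes, day 20 against day 16 had 2 pairs lower, and GFP low against day 20 had 0 genes higher over all kept cells and 6 pairs higher. With a gate of 5 markers and a margin of 3, day 20 against day 16 had 2 pairs lower, GFP low against day 20 had 6 higher and GFP high against day 20 had 0 lower. With the gate on thinned cells, GFP high against GFP low had 3 pairs higher, and GFP high against day 20 had 10 higher and 2 lower. A limit of 1.5-fold gave 3 genes lower in GFP high against GFP low. For the alternatives in this section, the shares of all genes called were not worked out.

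Among the alternatives added after the data had been seen, one gave each class in both libraries its share of UMIs in the second library as weight. It left 1 gene lower in day 20 against day 16 and 0 lower in GFP low and in GFP high against day 20. Others left out single libraries, of which day 16 moved the class share of the spread to 94.4%. The cause of these changes was not tested. No paired analysis was possible because each group had 1 library. Sums of fewer than 50 cells were not used, which leaves supporting-cell-like cells at day 16 and day 20 not compared.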
